A study of Mus musculus with 16 samples.

Results

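The genes described here encode 9 proteins that liver and yolk sac endoderm secrete into plasma: Alb, Afp, Ttr, Trf, Fga, Fgb, Itih2, Ambp and Rbp4. They are 9 of 16593 named genes on the array and were taken by gene symbol. They were chosen by the knockout minus control differences at days 6 and 9 in an earlier look at these data, so those differences are given below as a description without a test. All 9 were among the 7505 genes tested. The samples were mouse embryonic stem cells of genotype REST +/+ (control) and REST -/- (knockout, lacking the repressor REST). Undifferentiated cells kept with leukemia inhibitory factor (day 0) were compared with embryoid bodies, cell aggregates grown in hanging drops and then in suspension without that factor, at days 3, 6 and 9, with 2 arrays for each of the 8 groups. Both genotypes were grown without feeder cells in serum. The sources used here do not state how the knockout was made or how many lines were grown, so the line and the deletion cannot be told apart. Replicates carry a number but no mention of separate cultures, so each p-value reflects array-to-array spread that may be technical.

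Plasma proteins are made first by the visceral endoderm of the yolk sac and later by hepatocytes, under regulators such as HNF1, HNF4, FOXA and C/EBP factors. Transthyretin (Ttr) carries thyroid hormone and binds the vitamin A carrier Rbp4, and the 2 travel as one complex. Albumin (Alb) and alpha-fetoprotein (Afp) belong to one family of carriers, Afp being its fetal member. Trf is transferrin, the iron carrier. Fga and Fgb are chains of fibrinogen, the clotting protein. Ambp is the precursor of bikunin, a protease inhibitor that is joined to heavy chains such as Itih2. REST is known as a repressor of neuronal genes.

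In GRCm38.p6, Alb lies on chromosome 5 from 90460870 to 90476602 and Afp from 90490714 to 90508907, with 14111 bases between them. Fga lies on chromosome 3 from 83026153 to 83033627 and Fgb from 83042246 to 83049863, with 8618 bases between them. Itih2 is on chromosome 2 from 10094591 to 10130683, Ambp on chromosome 4 from 63143275 to 63154172, Trf on chromosome 9 from 103208876 to 103230286 and Rbp4 on chromosome 19 from 38116620 to 38125321.

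RefSeq promoter windows were matched for 7 of the 9 genes, not for Ttr and Trf. The 250 bases before the start site are shown for both gene pairs and for 1 of the 2 windows of Rbp4, whose time course differed from theirs. The other Rbp4 window, not shown, holds a C/EBP match. The windows are chr5:90460620-90460869 for Alb and chr5:90490464-90490713 for Afp, both on the plus strand, chr3:83025903-83026152 for Fga on the plus strand, and chr3:83049864-83050113 for Fgb and chr19:38125322-38125571 for Rbp4 on the minus strand. Capitals mark matches, on either strand, to the HNF1 half-site GTTAAT, the FOXA site TNTTTAC and the C/EBP site TTNNGCAA.
Alb: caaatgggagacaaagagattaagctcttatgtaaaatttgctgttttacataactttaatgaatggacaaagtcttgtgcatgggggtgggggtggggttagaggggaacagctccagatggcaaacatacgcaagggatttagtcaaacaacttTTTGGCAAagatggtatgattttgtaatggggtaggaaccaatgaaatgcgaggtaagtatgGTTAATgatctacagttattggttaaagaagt
Afp: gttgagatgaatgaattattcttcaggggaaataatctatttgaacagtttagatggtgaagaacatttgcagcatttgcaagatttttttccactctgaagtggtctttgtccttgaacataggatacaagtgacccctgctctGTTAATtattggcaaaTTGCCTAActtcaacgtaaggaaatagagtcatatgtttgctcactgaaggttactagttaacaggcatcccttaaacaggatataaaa
Fga: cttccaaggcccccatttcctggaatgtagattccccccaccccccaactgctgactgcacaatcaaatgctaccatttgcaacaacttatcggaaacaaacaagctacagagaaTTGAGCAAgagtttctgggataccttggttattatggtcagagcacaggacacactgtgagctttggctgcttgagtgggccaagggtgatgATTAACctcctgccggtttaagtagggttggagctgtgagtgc
Fgb: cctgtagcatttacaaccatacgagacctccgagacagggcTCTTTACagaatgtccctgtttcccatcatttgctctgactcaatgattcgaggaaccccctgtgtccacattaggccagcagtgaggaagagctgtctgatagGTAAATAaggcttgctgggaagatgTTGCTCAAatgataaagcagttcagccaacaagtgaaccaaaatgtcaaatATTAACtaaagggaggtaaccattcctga
Rbp4: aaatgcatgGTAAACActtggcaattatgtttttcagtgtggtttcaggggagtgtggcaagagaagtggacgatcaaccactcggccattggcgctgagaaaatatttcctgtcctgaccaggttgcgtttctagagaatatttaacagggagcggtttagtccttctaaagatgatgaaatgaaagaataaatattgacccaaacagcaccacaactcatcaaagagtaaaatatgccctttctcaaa

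The half-site GTTAAT stood in the windows of Alb, Afp, Fga and Fgb, which makes 4 of the 8 windows of these genes (Rbp4 has 2), against 6.43% of 32851 windows of this length. The C/EBP letters stood in 6 of the 8 windows, against 9.56%, and the FOXA letters in 2, against 10.9%. The HNF4 letters CAAAGTCCA stood in none, against 0.384%. Of the letters of the REST element RE1, CAGCACC stood in 1 of the 8 windows (an Rbp4 window), against 5.73%, and GGACAG in 2 (Ambp and Rbp4), against 18.7%. A match describes letters in this window and shows no binding.

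The signal of stem cell markers fell as the cells formed bodies, though not at every step. At day 0 all 12 stem cell markers, such as Pou5f1 and Nanog, were detected on both arrays in each genotype. Their summed intensity went from 83842 to 88618 in control cells at day 0 to between 2477 and 3431 at day 9. From day 6 to day 9, 5 of the 12 were called higher and 1 lower in control bodies, against 14% and 13.9% of all genes. In knockout bodies 3 were higher and 1 lower, against 17.7% and 17.5%. Between 6300 and 9045 probes were detected per array. Of 26 hepatocyte enzymes, 6 could be tested. At day 9 Ass1 and Tdo2 were detected on both control arrays, and Ass1 and Fah on both knockout arrays. Control day 6 replicate 1 stood apart from replicate 2 and is named below where it decides a value. In these bulk samples fewer producing cells and less RNA per cell cannot be told apart.

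All values below are normalized log2 intensities unless stated. A probe counted as detected at a detection p below 0.01. Each gene had 1 probe except Fga with 2, and the brighter Fga probe was used. All 9 genes passed the filter, which asked for detection on both arrays of at least 1 group. Alb, Trf and Fga passed through control day 9 alone, so they had to differ there. Itih2 and Ambp passed through day 9 of both genotypes alone, so they had to be high at that day. Counts over the 9 genes therefore support nothing by themselves.

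**Figure D1:**
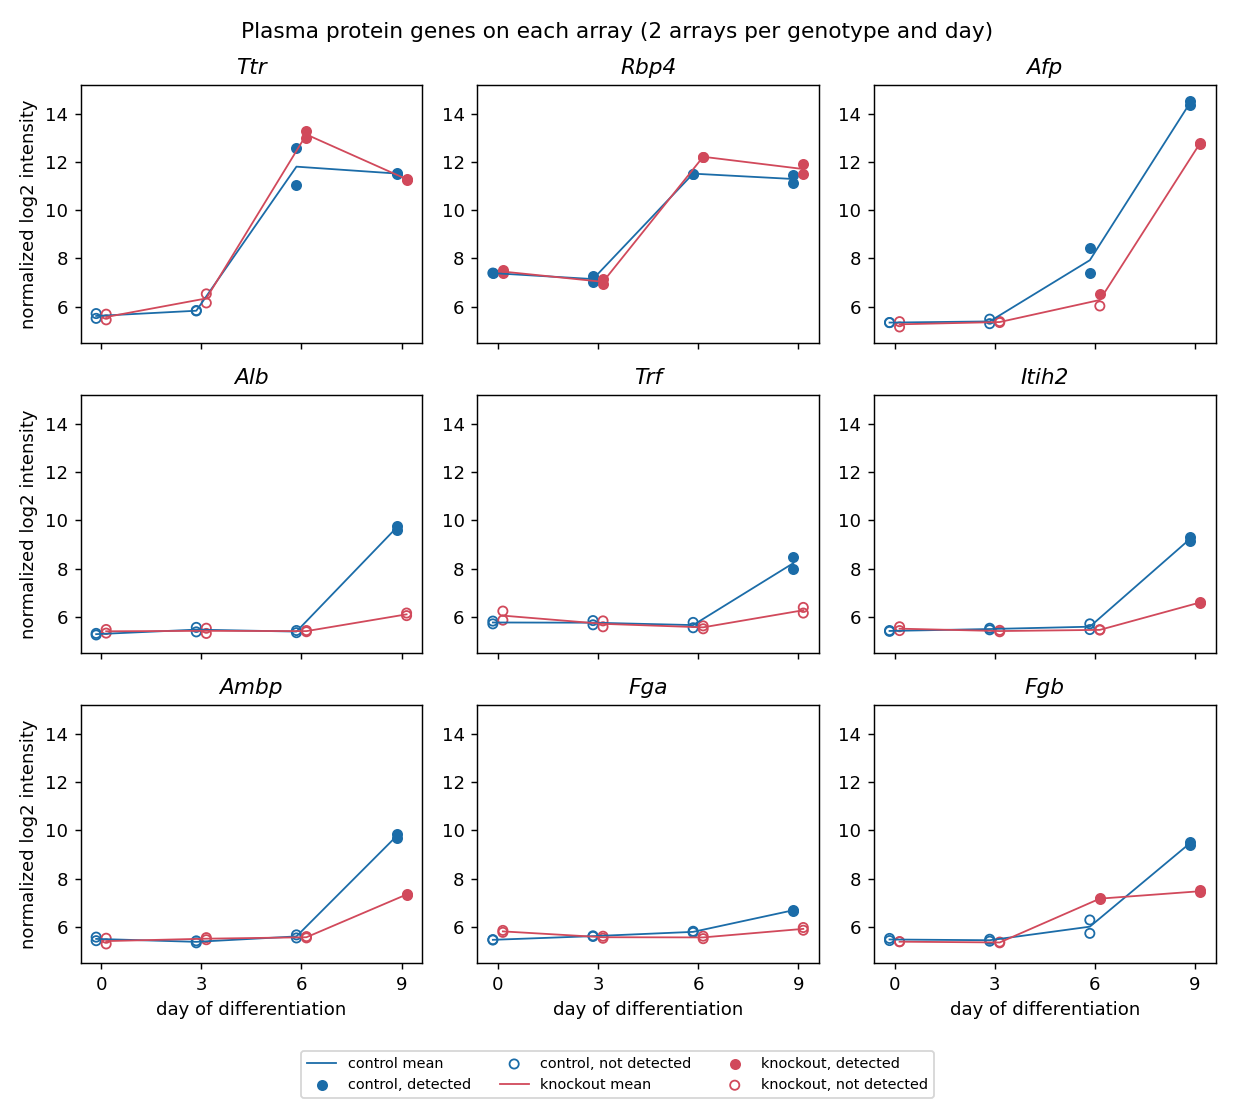
Normalized log2 intensity (y axis) of each gene on each of the 16 arrays by day of differentiation (x axis), with filled points for arrays that detected the gene, open points for those that did not, and lines through the group means. Ttr and Rbp4 were high by day 6 in both genotypes, whereas Alb, Trf and Fga were detected in control bodies of day 9 alone, and Itih2 and Ambp in both genotypes at day 9, higher in the control.

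The genes fell into an early and a late course. Ttr and Rbp4 rose between days 3 and 6 in both genotypes and lay higher on both knockout arrays than on both control arrays at day 6. Alb, Trf, Fga, Itih2 and Ambp were undetected through day 6 in both genotypes and rose in control bodies between days 6 and 9. Afp was first detected on both arrays at day 6 in the control and at day 9 in the knockout. Fgb was detected at day 6 in the knockout and at day 9 in the control.

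No gene of the 9 was called between genotypes before day 6. At day 0 none was called, by limma at a Benjamini-Hochberg adjusted p below 0.05, against 2.19% of the 7505 genes tested (1.41% higher and 0.773% lower in the knockout). At day 3 none was called, against 6.8% (3.94% higher and 2.85% lower). The lowest adjusted p at day 0 was 0.175, for Fga at 0.35 ± 0.12 (log2 difference, knockout minus control, ± standard error, 2 arrays per group). At day 3 it was 0.446, for Ttr at 0.51 ± 0.33. Rbp4 alone was detected at these days and had a difference of 0.06 ± 0.17 at day 0 (adjusted p = 0.917). Its day 3 difference was -0.11 ± 0.17 (adjusted p = 0.791). The other 8 genes were undetected on all 8 arrays of days 0 and 3, so that a difference below the detection limit could not be seen. Between days 0 and 3 no gene of the 9 was called in either genotype, against 51.5% of all genes in control cells (27.2% higher and 24.4% lower at day 3) and 46.2% in knockout cells (24.6% and 21.6%). Rbp4 came nearest in the knockout, at -0.43 ± 0.17 (adjusted p = 0.0519), followed by Ttr at 0.77 ± 0.33 (adjusted p = 0.0666). With the spread from the compared groups only, Rbp4 (adjusted p = 0.0432) and Ttr (adjusted p = 0.0119) were called. Leaving out control day 6 replicate 1 or replicate 2 left the Ttr step at 0.77 or 0.76, and the step was then called. These 2 arrays differed in Ttr and widened the spread shared by all groups, on which the lack of a call rests.

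Ttr, on chromosome 18 from 20664209 to 20674326, was undetected at day 3, where its probe read 5.84 and 5.82 in control bodies and 6.53 and 6.15 in knockout bodies. At day 6 it read 11.03 and 12.58 in control and 13.27 and 13.02 in knockout bodies, and at day 9 11.55 and 11.49 in control and 11.30 and 11.27 in knockout bodies. Both knockout arrays of day 6 thus lay above every other array, and control day 6 replicate 1 lay below its own day 9 arrays. From day 3 to day 6 Ttr rose at least 31.7-fold in control bodies (adjusted p = 1.69e-09) and at least 83.2-fold in knockout bodies (adjusted p = 4.08e-10). From day 6 to day 9 the knockout level fell by 1.85 ± 0.33 on the log2 scale (adjusted p = 5.83e-04). In control bodies the same step was -0.29 ± 0.33 (adjusted p = 0.558). Without control day 6 replicate 1 the control step was -1.06 and was called (adjusted p = 0.00109).

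The genotypes differed in Ttr by 1.33 ± 0.33 at day 6 and by -0.24 ± 0.33 at day 9. The day 6 difference was 0.56 without control replicate 1 and 2.11 without control replicate 2. The summed normalized intensity of visceral endoderm markers at day 6, over 9 genes tested, was 11264 on control replicate 1 and 23215 on control replicate 2. On the knockout arrays it was 33776 and 27787. Spink1 made up much of these sums, at 12.21 and 13.94 on the control and 14.23 and 14.61 on the knockout arrays. By direction, 6 of the 9 differences between genotypes were positive and 3 negative. Of these 9 markers 1 was higher in the knockout at day 6, Apom, an apolipoprotein, by 1.91 ± 0.23 (adjusted p = 1.08e-04), and none lower. Their part in the Ttr difference was not tested. Ttr is also made by the choroid plexus, of whose 5 markers tested none was called between genotypes at day 6 or day 9. By direction, 3 were higher and 1 lower in the knockout at day 6, and 4 higher at day 9. The remaining marker at each day had the same value in both genotypes. Quantile normalization gives probes of equal rank the same value, so its lack of a call says nothing about the genotypes. Their summed intensity went from 1222 to 1253 in control bodies of day 3 to between 68424 and 68894 at day 6, nearly all of it Igf2, in the step in which Ttr rose. Clic6 rose in that step too, by a fitted 3.17 (adjusted p = 3.41e-07), and Otx2 fell by 3.45 (adjusted p = 3.49e-09). At day 9 Clic6, Igf2 and Kl were detected in both genotypes and Folr1 and Otx2 in neither. The part of these markers in the Ttr values was not tested.

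Rbp4 alone of the 9 was detected in stem cells, on both knockout arrays and on 1 of 2 control arrays of day 0, the other control array just missing the threshold. It read 7.39 on both control arrays and 7.38 and 7.52 on the knockout arrays at day 0, and 7.28, 7.00, 7.14 and 6.92 on the 4 arrays of day 3 in the same order. At day 6 it read 11.52 on both control arrays and 12.21 and 12.23 on the knockout arrays. At day 9 it read 11.47 and 11.12 in control and 11.50 and 11.92 in knockout bodies. The rise from day 3 to day 6 was 4.38 ± 0.17 in control bodies (adjusted p = 5.06e-11) and 5.19 ± 0.17 in knockout bodies (adjusted p = 7.81e-12). From day 6 to day 9 the knockout fell by 0.51 ± 0.17 (adjusted p = 0.0300), a call that ended without either knockout day 6 array and without knockout day 9 replicate 1. The control step of -0.22 ± 0.17 was not called (adjusted p = 0.360). With median centring of the arrays that control step was -0.59 and called. The genotypes differed by 0.70 ± 0.17 at day 6, where the arrays did not overlap, and by 0.41 ± 0.17 at day 9. The day 9 difference lay between 0.20 and 0.62 when single day 9 arrays were left out.

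Over all 9 genes, 4 rose from day 3 to day 6 in control bodies, against 25.9% of all genes rising, 26.9% falling and 52.8% called either way. The same number rose in knockout bodies, against 25.7%, 27.4% and 53.1%. In both genotypes these were Ttr, Rbp4, Afp and Fgb.

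Afp, the fetal albumin relative, was undetected through day 3. At day 6 it read 8.45 and 7.40 on the control arrays, and 6.03 and 6.53 on the knockout arrays, of which replicate 2 alone detected it. At day 9 it reached 14.55 and 14.35 in control and 12.78 and 12.77 in knockout bodies. Control arrays both lay above the knockout arrays at each of these days. From day 3 to day 6 Afp rose at least 2.15-fold in control bodies (adjusted p = 1.07e-06). In the knockout the same step was 0.92 ± 0.25 (adjusted p = 0.00703), and the call ended without knockout day 6 replicate 2 (adjusted p = 0.0898).

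From day 6 to day 9 Afp rose by 6.52 ± 0.25 in control and by 6.50 ± 0.25 in knockout bodies, with adjusted p of 3.33e-10 and 4.76e-10. The difference between the genotypes was -1.65 ± 0.25 at day 6 and -1.67 ± 0.25 at day 9. Leaving out control day 6 replicate 1 made the day 6 difference -1.12, and leaving out replicate 2 made it -2.16. With an offset of 50 it was -1.32, and with 1 knockout array of day 6 undetected it is no exact distance. The deposited intensity of Afp at day 9, before normalization, was 19584 and 17292 in control and 6994 and 6426 in knockout bodies.

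Albumin itself was undetected in both genotypes at days 0, 3 and 6, with its probe between 5.24 and 5.56. At day 9 it read 9.78 and 9.61 in control bodies, and 6.15 and 6.04 in knockout bodies. The deposited intensities behind these values were 835 and 791 in control against 60.0 and 43.7 in knockout bodies. On the knockout arrays the detection p was 0.0188 and 0.0414, short of the threshold. In control bodies Alb rose at least 8.81-fold from day 6 to day 9. Alb was kept through control day 9 alone, so the p is given over 16593 genes without the filter on detection (limma, adjusted p = 3.58e-11). In the knockout the probe rose by 0.70 ± 0.14 (adjusted p = 0.00124), from undetected to undetected. At day 9 Alb was at least 8.97-fold lower in the knockout than in the control.

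Transferrin was undetected on all arrays but those of control day 9, which read 8.47 and 7.97. The knockout arrays of day 9 read 6.15 and 6.39. Trf rose at least 3.17-fold in control bodies from day 6 to day 9 (adjusted p = 3.42e-07 over 16593 genes without the filter). The knockout step was 0.71 ± 0.18 (adjusted p = 0.00853), a call that ended without knockout day 6 replicate 1 (adjusted p = 0.0648) and without knockout day 9 replicate 2 (adjusted p = 0.0790). At day 9 Trf was at least 3.23-fold lower in the knockout. Transferrin is also made by oligodendrocytes. Of their 9 markers 3 could be tested, none differed at day 9, and their summed intensity was 307 to 360 in control and 269 to 279 in knockout bodies.

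The 2 partners in the hyaluronan-binding inhibitor complex had similar courses. Ambp read 9.83 and 9.69 in control and 7.31 and 7.37 in knockout bodies at day 9, detected on all 4 arrays, and was undetected on every array before. It rose at least 9.23-fold in control bodies (adjusted p = 4.09e-11) and at least 1.60-fold in knockout bodies (adjusted p = 2.36e-07) from day 6 to day 9. Itih2 read 9.31 and 9.14 in control and 6.55 and 6.63 in knockout bodies at day 9, again detected on all 4 arrays and on none before. It rose at least 6.36-fold in control bodies (adjusted p = 1.57e-10). In the knockout the fitted step was 1.14 ± 0.13 (adjusted p = 1.42e-05). The day 9 mean of Itih2 there, 6.59, lay between the detection limits of the 2 day 6 arrays, 6.79 and 6.52. No lower bound on this rise could therefore be set. Both Ambp and Itih2 passed the filter through day 9 groups alone. A rise to day 9 was thus favoured by the filter, and their p-values for this step support nothing by themselves. At day 9 the genotypes differed by -2.42 ± 0.13 in Ambp and by -2.64 ± 0.13 in Itih2.

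Both fibrinogen chains were first detected at day 9 in control bodies. Fgb was undetected in control bodies of day 6, at 5.73 and 6.28, and detected in knockout bodies of day 6, at 7.17 and 7.16. At day 9 it read 9.53 and 9.41 in control and 7.44 and 7.51 in knockout bodies. The order of the genotypes was thus opposite at the 2 days, without overlap between arrays at either. From day 3 to day 6 Fgb rose at least 1.32-fold in the knockout (adjusted p = 2.46e-07). In control bodies it rose by 0.56 ± 0.16 (adjusted p = 0.00767), undetected at both days, and the call ended without control day 6 replicate 2 (adjusted p = 0.131).

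From day 6 to day 9 Fgb rose at least 7.53-fold in control bodies (adjusted p = 1.62e-09), whereas the knockout step of 0.31 ± 0.16 was not called (adjusted p = 0.147). Knockout bodies had at least 1.53-fold more Fgb signal at day 6, and Fgb differed by -1.99 ± 0.16 at day 9. The fitted day 6 difference of 1.16 ± 0.16 was 0.88 without control day 6 replicate 1 and 1.42 without replicate 2. Fga was dim throughout. It was detected on both control arrays of day 9, at 6.70 and 6.68, and on no other array, with 5.86 and 5.97 in knockout bodies of day 9. It rose at least 1.09-fold in control bodies from day 6 to day 9 (adjusted p = 5.19e-05 over 16593 genes without the filter). The knockout step of 0.35 ± 0.12 (adjusted p = 0.0319) lost its call without any 1 of the 4 knockout arrays of these days. At day 9 Fga was at least 1.11-fold lower in the knockout. Its second probe, detected on no array, read 6.30 and 6.19 in control and 5.40 and 5.64 in knockout bodies of day 9.

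**Figure D2:**
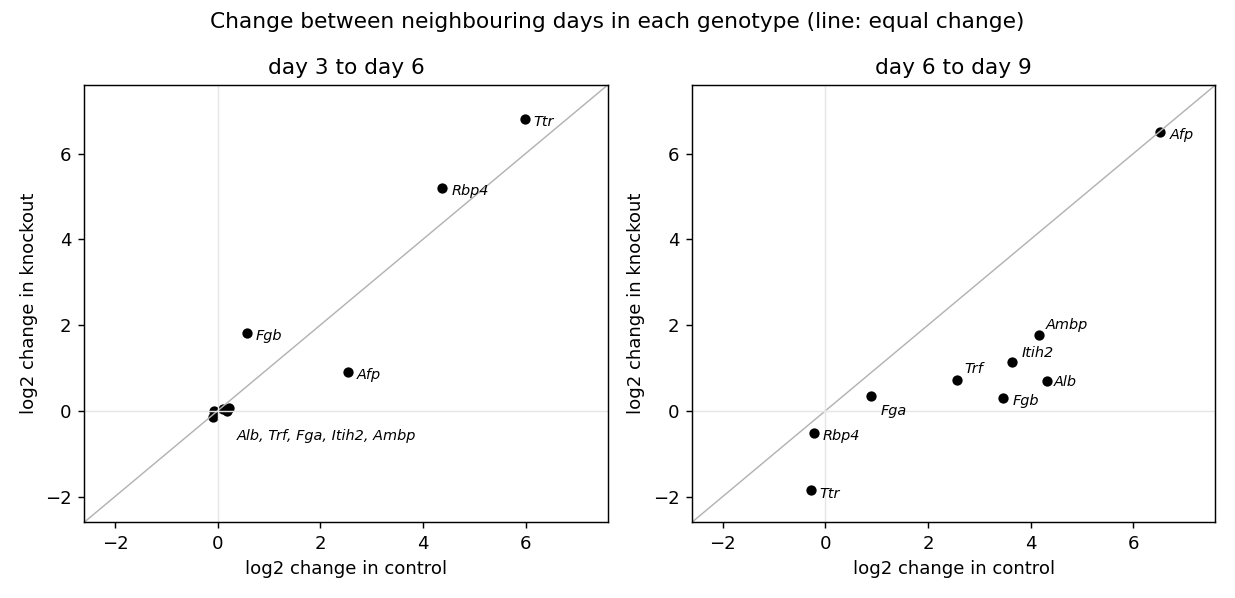
Log2 change of each gene in control (x axis) against knockout (y axis), from day 3 to day 6 on the left and from day 6 to day 9 on the right, with the line of equal change. In the later step Afp lies on the line, at 6.52 and 6.50, while Alb, Ambp, Itih2, Fgb, Trf, Ttr, Fga and Rbp4 lie below it. Values of undetected groups are fitted and depend on the background.

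From day 6 to day 9, 7 of the 9 genes rose in control bodies and none fell. Of all genes 14% rose, 13.9% fell and 27.9% were called either way. Of the 7, 3 (Alb, Trf and Fga) were kept through control day 9 alone. Itih2 and Ambp were kept through day 9 of both genotypes alone. The filter thus favoured a rise of these genes, and the count supports nothing by itself. In knockout bodies 6 rose, against 17.7%, and 2 fell, Ttr and Rbp4, against 17.5%, with 35.2% called either way. Of these 6, Alb, Trf and Fga were undetected at both days, and for Itih2 no lower bound on the rise could be set. Without knockout day 6 replicate 1 the number called in the knockout was 5 in place of 8, with Trf, Fga and Rbp4 lost. Each gene's changes in the 2 genotypes stand side by side here, and the difference between them was not tested, because it draws on the days 6 and 9 contrasts by which the genes were chosen.

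**Figure D3:**
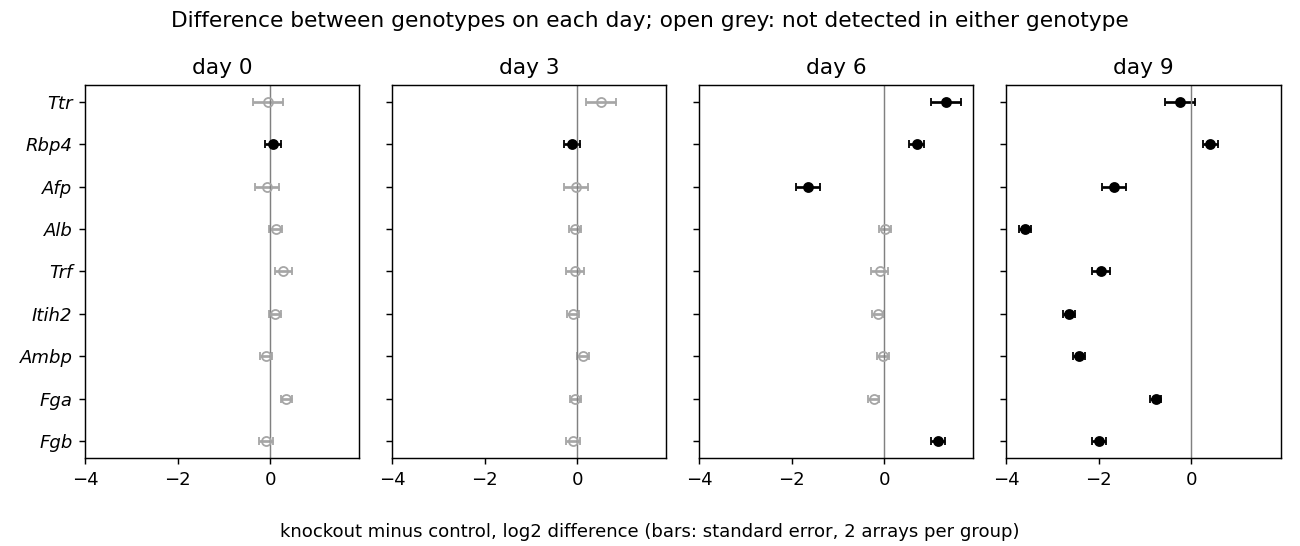
Knockout minus control log2 difference (x axis) of the 9 genes (y axis) at days 0, 3, 6 and 9, with bars of 1 standard error over 2 arrays per group, and open grey points where neither genotype detected the gene. Differences of Alb, Trf, Itih2, Ambp, Fga, Fgb and Afp lie below 0 at day 9, while Ttr and Rbp4 lie near 0 or above.

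The median log2 difference over the 9 genes was -1.95 at day 9 and -0.03 at day 6, against 0.00 for all genes at both days.

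Plasma protein genes outside the 9 were looked at through a list of 63, of which 58 were on the array. Only 9 of them passed the detection filter. None of these was called at days 0, 3 or 6, where at day 6 1.43% of all genes were higher, 0.32% lower and 1.75% called either way. At day 9, 5 were lower and 1 higher in the knockout, with a median of -0.93, where 2.43% of all genes were lower, 2.69% higher and 5.12% called either way. Kng1, kininogen, the precursor of bradykinin, read 7.36 on average in control and was undetected in knockout bodies, at least 1.78-fold lower. Serpinc1, antithrombin, was at least 1.63-fold lower. Igfbp1, a carrier of insulin-like growth factors, was detected in both genotypes and differed by -1.30 ± 0.14 (adjusted p = 2.36e-05).

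Serpina1b and Serpina1d, which encode alpha-1-antitrypsin, were at least 1.55-fold and at least 1.38-fold lower. The Serpina1b call was lost without normexp (adjusted p = 0.0690) and with the authors' normalized values (adjusted p = 0.0705). Their family holds near-identical copies, so signal may be shared between them. Serpinf1, an anti-angiogenic factor also made by mesenchyme, was higher by 0.73 ± 0.19 (adjusted p = 0.0369), a call that ended under several settings, such as leaving out any 1 day 9 array other than knockout replicate 1. Kng1, Serpinc1, Serpina1b and Serpina1d were detected in control bodies of day 9 alone and so passed the filter through it, which makes them 4 of the 5 lower genes, and the count with the filter supports nothing. Tested over 16593 genes without the filter, the adjusted p was 4.38e-06 for Kng1, 7.96e-05 for Serpinc1, 2.54e-04 for Serpina1b and 5.71e-04 for Serpina1d. In that fit 13 of the 58 genes were lower and none higher, against 0.958% of 16593 genes lower, with a median of -0.14. Fgg, the remaining fibrinogen chain, and Afm, an albumin relative, were among these 13, named here after their values were seen.

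**Figure D4:**
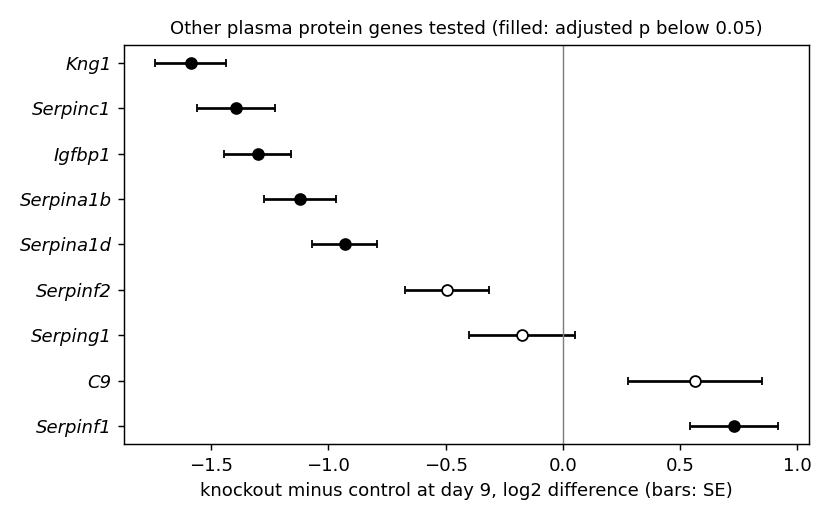
Knockout minus control log2 difference at day 9 (x axis) of the 9 other plasma protein genes that passed the filter (y axis), with bars of 1 standard error over 2 arrays per group and filled points at an adjusted p below 0.05. Kng1, Serpinc1, Igfbp1, Serpina1b and Serpina1d are lower and Serpinf1 is higher in the knockout.

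Of 26 listed regulators of liver and endoderm, 9 were tested. At day 3, 4 were lower in the knockout, where 2.85% of all genes were, and none higher: Sox17 at least 4.02-fold (adjusted p = 2.54e-06), Gata6 by -3.28 ± 0.37 (adjusted p = 4.39e-05), Hhex, a homeobox regulator of the liver bud, by -1.69 ± 0.18 (adjusted p = 2.27e-05) and Tbx3 by -1.42 ± 0.31 (adjusted p = 0.0101). None was called at day 6. At day 9 Hhex alone was lower, by -0.81 ± 0.18 (adjusted p = 0.0153), a call lost without any 1 of the 4 day 9 arrays. Hnf4a, a regulator of many plasma protein genes, differed by -0.59 ± 0.18 at day 9 (adjusted p = 0.0768) and was then undetected in the knockout. The 5 receptors and uptake proteins tested, which include Tfrc, the transferrin receptor, had no call at day 6 or day 9.

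Markers of other tissues were called at day 9 as well, where 2.69% of all genes were higher and 2.43% lower. Of 10 blood and vessel markers Hba-x was higher, with sums of 9868 to 9911 in control and 12545 to 13185 in knockout bodies. The Hba-x call was lost without normexp (adjusted p = 0.0549) and with the authors' normalized values (adjusted p = 0.0550). Of 11 definitive endoderm and gut epithelium markers Gsc, undetected in control bodies, was higher and Hhex lower. Of 11 mesenchyme and smooth muscle markers 2 were lower, Actg2 by -2.36 ± 0.29 and Lox by -1.27 ± 0.17 (adjusted p = 7.91e-05 for Actg2 and, kept through control day 9 alone, 2.32e-04 for Lox without the filter), and the summed intensity was 117355 to 118633 in control and 100989 to 104114 in knockout bodies. Of 7 heart muscle markers 2 were lower, Myl2 and Nexn, with sums of 5495 to 6172 and 3672 to 3802. Of 12 stem cell markers 5 were higher, with sums of 2477 to 3431 and 4285 to 5893, and of 7 neuron markers 5 were higher. Among these stem cell markers, Tdgf1 lost its call with the authors' normalized values (adjusted p = 0.127). With the mean of all detected probes the calls of Tdgf1 (adjusted p = 0.0865) and Lin28a (adjusted p = 0.117) were lost. Of 9 visceral endoderm markers Cdx2 was lower and Spink1 higher, with sums of 5771 to 5824 in control and 8119 to 9297 in knockout bodies. Spink1 made up much of the knockout sums, at 10.68 and 10.72 in control and 12.11 and 12.42 in knockout bodies. The median difference over the 9 was -0.10, with 6 negative and 3 positive. Of 6 hepatocyte enzymes Tdo2, of tryptophan breakdown, was at least 1.91-fold lower (adjusted p = 4.54e-05), with sums of 769 to 788 and 582 to 624. The calls of Myl2, Nexn, Cdx2, Spink1 and Hba-x were each lost on leaving out any 1 day 9 array and with the authors' normalized values. Leaving out control day 9 replicate 2 also ended the calls of Tdgf1, Nanog and Lin28a. Without knockout day 9 replicate 1 those of Tdgf1 and Nanog were lost, and without control day 9 replicate 1 that of Tdgf1. The part of these markers in the plasma protein differences was not tested.

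The genes most like Alb over the 16 arrays, by Pearson's r, were Srpx2 (0.977), Apoa2 (0.975), Fabp4 (0.966), Clca3a1 (0.965) and Slc16a12 (0.964). The genes most like Afp were Myl2 (0.990), Il1r1 (0.989), Cavin3 (0.988), Col11a1 (0.988) and Fmod (0.987). The mean of the 9 standardised profiles was most like Vcam1 (0.983), Dcaf12l2 (0.978), Srpx2 (0.966), Afmid (0.965) and Ogn (0.964). These values describe a shared time course on the same arrays, dominated by day 9.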

How the data were processed

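Labelled cRNA of 16 samples was hybridised to Illumina mouse bead arrays, per the labels' protocols. The deposited intensity values of 25697 probes were not normalized between arrays, and 25.5% to 28.0% of them per array lay below 0, so the background had already been subtracted. Each came with a detection p-value, per the file headers. A further deposited table, with intensity values whose near-equal medians point to quantile normalization by the authors, served as an alternative.

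The function neqc (limma 3.58.1, R 4.3.3) normalized the intensities (normexp, offset of 16, quantile, log2), so a fold understates the change of dim genes. Probes detected (p below 0.01) on both arrays of a group were kept (10241), and the brightest gave each of 7505 genes. All 16 arrays entered a single lmFit and eBayes model with a mean for each group (8 residual and 6.40 prior degrees of freedom), and adjusted p-values are from this limma fit over all genes. Where a gene was undetected on both arrays of a group, the fold is a lower bound, set on each array by the lowest detected value or the probe's own, whichever is greater. The fit was tested on simulated data. Genes were named from the platform annotation, which gave 1 symbol for 23978 probes. The other 1719, without a symbol or with more than 1, were left unnamed. Every one of the 9 Entrez identifiers matched RefSeq.

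The 9 genes and all lists were chosen with earlier results of these data known. Genes outside the 9 were named by a rule, the largest called differences at day 9 in each list, with up to 8 for plasma proteins, regulators and receptors and up to 4 for the marker lists, and the 5 most similar profiles. List genes named for days 3 and 6, Hnf4a and Tfrc were added after their values were seen. Promoter sequences are from RefSeq, GRCm38.p6. Alternatives were the 8 other settings and the 16 fits that leave out an array. The number of arrays limits the precision.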

Additional observations from a re-analysis of the deposited data

Results flagged for a closer look

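Fgb differed between the genotypes in opposite directions at 2 days, with no overlap between arrays: 1.16 at day 6, higher in the knockout, and -1.99 at day 9, lower. Ttr did so as well, with 1.33 at day 6 and -0.24 at day 9. The difference between the days was not tested for either gene. The Ttr value of day 9 is smaller than its standard error of 0.33, and that of day 6 was 0.56 without control day 6 replicate 1.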

How the results depend on the processing

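Among 24 alternative settings no value of a named gene changed direction while called. The number of the 9 genes called at day 0 between genotypes was 1 in place of 0 without normexp and with the authors' normalized values, Fga in both cases. The number called from day 0 to day 3 in the knockout was 2 in place of 0 under these 2 settings (Ttr and Fga), 2 with the spread from the compared groups only (Ttr and Rbp4), 1 with the mean of all detected probes, and 0 to 1 when single arrays were left out. From day 6 to day 9 in the knockout it was 5 to 8 when single arrays were left out. The median difference over the 9 genes at day 6 was -0.20 without normexp and -0.20 with the authors' values, against -0.03. At day 9 it was -1.67 with an offset of 50, -1.77 with median centring, and -2.06 to -1.71 when single arrays were left out, against -1.95. The other plasma proteins called at day 9 numbered 13 without the filter, 4 without normexp and with the authors' values, and 5 to 7 when single arrays were left out, against 6. With the replicate block 5 of them were called, Serpinf1 being lost, and every count and median over the 9 genes was the same. The replicate numbers do not pair the samples by their labels, and the differences between replicates 1 and 2 correlated between groups at -0.18 to 0.14. Detection limits Fga, Alb and Trf in knockout bodies, whose values there rest on the background.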
